A study of Homo sapiens with 4 samples.

Results

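In Hi-C domain lists of VA-ES-BJ cells, 204 domain edges of one vector lay more than 100 kb from any edge of the other: 99 edges of the BAF47 lists and 105 of the empty vector lists. An edge is the start or the end of a listed domain. These edges were chosen by their listed positions: each had to appear at an identical position in the A and the B list of one vector, with the closest edge of the other vector's lists over 100 kb away. They make up 1.56% of the 13065 edges that both lists of either vector held. VA-ES-BJ is an established epithelioid sarcoma cell line. All 4 samples carried a lentiviral vector and were selected with blasticidin at 10 µg/ml. It was empty in samples A and B of one group, and expressed BAF47 constitutively in samples A and B of the other. The labels do not say whether A and B are separate infections or whether the cells are a clone or a pool, and they differ on whether 48 h and 5 days refer to virus exposure, selection or growth. The level of BAF47 was not measured by these files.

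Topologically associating domains are stretches of a chromosome whose sequences meet each other in the nucleus more often than they meet the neighbouring stretches. Cohesin extrudes loops of chromatin and is halted at sites bound by CTCF, which places many domain edges. BAF47, the product of SMARCB1, is a core subunit of BAF (SWI/SNF) complexes, which use ATP to move nucleosomes and open chromatin at enhancers and promoters. Epithelioid sarcomas typically lack it, and VA-ES-BJ cells with a BAF47 vector serve to ask what its return changes. An edge far from any edge of the other vector can mark a place where a listed domain is parted, joined or newly listed, as opposed to a boundary listed 1 step to the side. A boundary displaced by 150 kb or more would meet the rule as well, so distance alone does not tell these apart.

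Empty vector A and B had 6530 and 6486 listed domains, and BAF47 A and B had 6531 and 6589, with starts and ends on a 50 kb grid. They give neither scores nor read counts, so the depth is unknown and part of any difference may come from it, which was not tested. Positions number the listed bins, with some bins left out. First domains at position 0 on chromosomes 13, 14, 15, 21 and 22, whose short arms are unsequenced, show this. Positions below are therefore not hg18 coordinates, and no gene, annotation or sequence was placed on them. Against empty vector A, both BAF47 lists run 50 kb ahead on part of chromosome 9, and BAF47 B runs 50 kb behind on part of chromosome 20. After alignment, all 99 and all 105 edges still met the rule, with 1 more in each direction.

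Pairing the samples by vector gave more distant edges than pairing them in the 2 other possible ways. The 99 BAF47-specific edges were 0.862% of the 11485 edges shared by BAF47 A and B, and the 105 empty-vector-specific edges were 0.922% of the 11386 shared by empty vector A and B. Pairing by letter gave 30 edges of empty vector A with BAF47 A, or 0.270%, and 17 of empty vector B with BAF47 B, or 0.154%. The crossed pairing gave 24 edges in each direction, or 0.217% of the edges shared by empty vector A with BAF47 B and likewise 0.217% for empty vector B with BAF47 A. The sums were thus 204 by vector, 47 by letter and 48 crossed, a ratio of 4.25 to the higher of the other sums. Without any 1 of the 4 samples, when a lone list stands for its vector, the ratio was 1.51 to 1.81, with 182 to 236 BAF47-specific and 173 to 243 empty-vector-specific edges. With only 3 pairings no p below 0.333 can be reached, and none is given. The ratio was lower for edges at any distance, where 1216 edges compared with 479 and 477. Over 200 kb the counts were 102 against 23 and 19, over 500 kb 29 against 9 and 3, and over 1000 kb 7 against 0 and 0. These 7, all empty-vector-specific, lay in a few stretches on chromosomes 5, 8 and 13, so they are not separate observations.

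**Figure D1:**
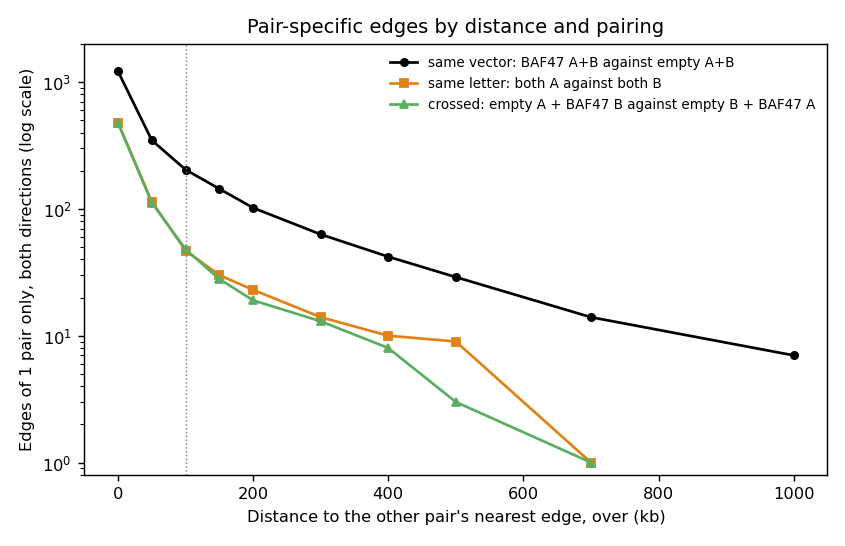
Number of edges held by both lists of a pair (y axis, log scale, both directions summed) against the distance that the other pair's nearest edge had to exceed (x axis, kb), for the 3 ways to pair the 4 lists. The curve for the vector pairing lies above both others at each distance, with 204 against 47 and 48 at the dotted line of 100 kb, and points with a count of 0 are not drawn.

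Distant edges of a single list were found again in its replicate more often than in a list of the other vector. For this, edges of 1 list were chosen only by their distance, over 100 kb, from 2 other lists, and then looked up in the remaining list. Empty vector A held 243 edges this far from both BAF47 lists, and empty vector B listed 43.2% of them at an identical position. In the reverse direction empty vector A listed 44.5% of 236. BAF47 B listed 45.0% of the 220 edges that BAF47 A held over 100 kb from both empty vector lists, and BAF47 A listed 41.9% of 236. The mean was 43.7 ± 1.37% (SD, 4 lists). The 2 lists of a vector share the same found edges, so this SD is not a spread over independent lists. When the list looked up was of the other vector, the share ranged from 11.8 to 21.6%, with a mean of 16.6 ± 3.3% (SD, 8 ordered pairs that reuse the 4 lists). No value of the first kind overlapped the second. The edges found in the replicates are the 105 and 99 edges themselves, and those found in the other vector are the edges of the other pairings. Both kinds of share thus only add the denominators and are no further support. In lookups in the other vector, 1 of the 2 lists used to choose edges was the replicate. Those lookups therefore started from a different set, of 127 to 159 edges against 220 to 243. A match within 100 kb raised the means to 53.8 ± 3.02% and 24.3 ± 5.1%. Each list also held 93 to 117 edges over 100 kb from every edge of the 3 other lists, about as many as either vector's lists had in common.

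**Figure D2:**
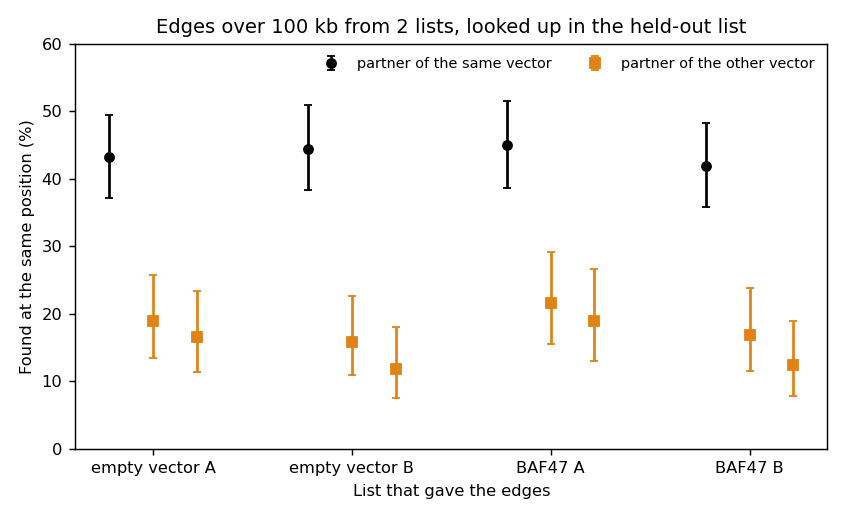
Share of edges found at an identical position in the held-out list (y axis, %), for edges of the list named on the x axis that lay over 100 kb from the 2 lists left. Bars are 95% Wilson intervals, which cover counting error only, and the 4 replicate lookups (circles) lie from 41.9 to 45.0% while the 8 lookups in the other vector (squares) lie from 11.8 to 21.6%.

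BAF47-specific edges lay mostly within 200 kb of an empty vector edge, and the empty vector direction had the longer tail. The first grid step inside the limit, 150 kb, held 37 BAF47-specific and 23 empty-vector-specific edges, and the last step outside it, 100 kb, held 76 and 68. The median distance was 200 kb for BAF47-specific edges and 250 kb for empty-vector-specific edges, and the largest were 1000 and 3050 kb. Over 200 kb there were 37 and 65 edges, and over 500 kb 7 and 22. Many of the 22 lay in a few stretches, such as those from 113.00 Mb on chromosome 4 and from 3.40 Mb on chromosome 8. They are therefore not separate observations. Both lists of the other vector gave the same distance for 91 of the 99 and 86 of the 105 edges. These distances are part of the rule and are given as a description.

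Most BAF47-specific edges lay where the empty vector lists had 1 unbroken domain, though in a smaller share than the positions open to them. For 82 of the 99 edges (82.8%, 95% Wilson interval 74.2 to 89.0%, which covers counting error only and takes neighbouring edges as separate), both empty vector lists had a domain across the position. Of all positions over 100 kb from an empty vector edge, where such an edge can lie, 93.5% were inside a domain of both lists, with a median covering length of 1450 kb. For 70 of these 82 edges that domain had identical ends in empty vector A and B. The covering domains had a median length of 737.5 kb over the 82 edges, averaging the A and B lists, with quartiles of 475 and 1200 kb and a range of 300 to 3550 kb. There were 34 distinct covering domains with identical ends in both empty vector lists. Of these, 24 kept both ends in both BAF47 lists, 7 kept 1 end and 3 kept neither. An end counted as kept where both BAF47 lists had an edge of either kind, start or end, at its position. Kept ends therefore do not always mean that the same stretch was cut from inside. On chromosome 5, for example, 35.00 Mb started an empty vector domain but ended a domain in both BAF47 lists.

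The 24 stretches with kept ends most often held 2 BAF47 domains. In 20 of them each BAF47 list held exactly 2 domains, and these 20 ran from 300 to 2400 kb with a median of 500 kb. On chromosome 1, for example, the empty vector domain from 17.85 to 18.75 Mb was listed in BAF47 A and B as a 200 kb and a 650 kb domain parted by 50 kb. On the same chromosome the stretch from 30.35 to 30.90 Mb became domains of 200 and 300 kb in both BAF47 lists. On chromosome 17, the domain from 35.80 to 36.85 Mb became domains of 150 and 850 kb. Each of these examples, picked from the 24 after their values were seen, read the same in both replicates of each vector.

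Empty-vector-specific edges lay inside BAF47 domains about as often as the positions open to them. Both BAF47 lists had a domain across 98 of the 105 positions (93.3%, 95% Wilson interval 86.9 to 96.7%), against 95.1% of all positions over 100 kb from a BAF47 edge, whose median covering length was 1500 kb. The A and B domains had identical ends for 70 of the 98. The median covering length over the 98 edges was 975 kb, with quartiles of 700 and 3100 kb and a range of 300 to 6950 kb. Of 31 distinct BAF47 domains with identical ends in both lists, 20 kept both ends in both empty vector lists, 8 kept 1 and 3 kept neither. Here too an edge of either kind at the position counted as a kept end. In 15 of those 20, each empty vector list held exactly 2 domains where the BAF47 lists had 1, and these 15 had a median length of 550 kb. On chromosome 4, neighbouring BAF47 domains from 17.25 to 18 Mb and from 18.15 to 19.70 Mb were each cut this way, into 200 and 500 kb and into 450 and 1050 kb in both empty vector lists. The covering length per edge gives weight to domains that hold many edges, and 28 of the 98 lay in the 4 fullest BAF47 domains. Counted once each, the 40 BAF47 domains had a median of 725 kb and the 45 empty vector domains of the other direction 650 kb, with 13 and 12 of 1 Mb or more. The difference between the directions was not tested.

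The remaining edges, 17 BAF47-specific and 7 empty-vector-specific, lay in stretches where neither list of the other vector had a domain. The 17 lay in 11 unlisted stretches of the empty vector lists, and 10 of the 17 were in stretches of over 1 Mb (the longer of the 2 lists). On chromosome 6, both BAF47 lists had a 150 kb domain from 118.25 to 118.40 Mb, where neither empty vector list had a domain from 116.90 to 118.65 Mb. On chromosome 13 both had a 200 kb domain from 51.65 to 51.85 Mb inside an unlisted stretch of 1100 kb. The 50 kb domain at 19.65 Mb on chromosome 5 sat in a stretch of 1700 kb in empty vector A and 2400 kb in empty vector B. The edge at 96.75 Mb on chromosome 11 ended a 4100 kb BAF47 domain. There the unlisted stretch was 300 kb in empty vector A and 4300 kb in empty vector B, so the empty vector replicates differed from each other. The 7 empty-vector-specific edges lay in 5 unlisted stretches, the longer of the 2 lists again taken, of 500 to 900 kb, and 6 of them bounded a 50 kb domain in both lists.

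Unlisted stretches held more of these edges per length than domains did, under every pairing. Positions over 100 kb from any edge of the other vector, where a specific edge can lie, made up 1099.2 Mb for the BAF47 direction and 1102.1 Mb for the empty vector direction. Per 100 Mb of such positions, BAF47-specific edges numbered 7.98 in domains of both empty vector lists and 27.3 in their unlisted stretches, a ratio of 3.42. For empty-vector-specific edges the values were 9.35 and 14.7, a ratio of 1.57. The 4 pairs of the other pairings had ratios of 1.76 to 3.22, so the ratio for the empty vector direction was below and that for the BAF47 direction above them. These ratios rest on 17 and 7 edges in unlisted stretches, and on 2 or 3 in each of the other pairs.

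Cuts were also denser in the shorter covering domains. BAF47-specific edges numbered 20.8 per 100 Mb of eligible positions in empty vector domains under 500 kb, 13.3 in those of 500 kb to under 1 Mb, and 4.23 in those of 1 Mb or more. For empty-vector-specific edges in BAF47 domains the values were 15.2, 14.4 and 6.79. In the largest class the 48 empty-vector-specific edges compared with 29 BAF47-specific ones, on 706.5 and 685.9 Mb. In the 4 pairs of the other pairings the class under 500 kb was also the densest, with 4.05 to 6.35 edges per 100 Mb, and the largest class had 0.728 to 2.17.

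Most specific edges came in pairs that were the end of 1 domain and, 50 kb on, the start of the next. The share of such pairs among all shared edges was not counted. Whether they are more frequent among specific edges than in the lists at large is therefore unknown. In both lists of its vector this was so for 54 of the 99 BAF47-specific edges, in 27 pairs, and for 58 of the 105 empty-vector-specific edges, in 29 pairs. Another 8 and 18 edges had a specific edge 50 kb away but were in no such pair, and for BAF47 these 8 were the ends of 4 domains of 50 kb. Of the 37 BAF47-specific edges without a specific edge 50 kb away, 13 had an edge 50 kb away in both BAF47 lists that was itself too near an empty vector edge. Another 14 had one in a single BAF47 list, and 10 had none. For the 29 such empty-vector-specific edges these numbers were 15, 7 and 7.

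The rule asks for an identical position but not for an identical domain, start or end. BAF47-specific edges were a start in both lists 45 times, an end in both 45 times and a start in 1 list and an end in the other 9 times. Empty-vector-specific edges were a start in both 55 times, an end in both 45 times and mixed 5 times. The edge bounded a domain that was identical in both lists of its own vector for 82 of 99 (82.8%) and 84 of 105 (80%) edges. Over all 11485 and 11386 edges shared by the lists of a vector the shares were 81.2 and 82.2%, so on this measure the specific edges were near the background. Mixed edges made up 9.09% of the BAF47-specific ones against 5.34% of all 11485. For empty vector the shares were 4.76 and 4.33%. The shorter domain at the edge was 50 kb, the smallest size the grid allows, in both lists for 9 BAF47-specific and 28 empty-vector-specific edges. Whole domains with both ends specific to 1 vector and identical in its lists numbered 15 with BAF47, from 50 to 450 kb and with 4 of 50 kb. With empty vector they numbered 18, from 50 to 3850 kb and with 11 of 50 kb. The shares of 50 kb domains at all shared edges were not counted. Whether such small domains are more frequent at specific edges than in the lists at large is therefore unknown. Many of the edges at 50 kb domains lay close together, such as all 6 from 113.00 to 113.35 Mb on chromosome 4 with empty vector. These differences between directions were not tested.

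Specific edges less than 500 kb apart, or exactly so, were grouped into loci, 56 with BAF47 and 51 with empty vector. Single edges made up 28 and 21 loci, and pairs 21 and 23, of which 15 and 18 were the end and start of neighbouring domains 50 kb apart, and 4 and 4 the ends of a single 50 kb domain. Loci of 4 or more edges numbered 5 with BAF47, holding 23 edges (23.2%), and 6 with empty vector, holding 35 (33.3%). The largest held 6 BAF47-specific and 10 empty-vector-specific edges. Among the other pairings the largest locus held 5 edges, and 4 loci in all had 4 or more, out of fewer loci. Empty vector A with BAF47 A had 2 such loci of 16, and empty vector B with BAF47 A had 2 of 13. Empty vector B with BAF47 B had 0 of 13, and empty vector A with BAF47 B 0 of 14. Large loci were thus not particular to the vector pairing.

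At each of the 5 large BAF47 loci, both empty vector lists had a single domain from the first to the last specific edge and no edge between. The rule bars an edge of the other vector within 100 kb of a specific edge. The lack of edges between closely spaced specific edges was therefore fixed by the rule. The first locus on chromosome 10 runs from 27.80 to 28.50 Mb, inside a 1000 kb domain of both empty vector lists from 27.65 to 28.65 Mb. BAF47 A and B both listed 4 domains there, of 100, 100, 450 and 150 kb, and all 6 edges are the ends and starts between them. The other locus on chromosome 10, from 38.20 to 38.40 Mb, had a 650 kb domain in both empty vector lists and domains of 150, 100, 200 and 50 kb in both BAF47 lists. On chromosome 5 the 900 kb empty vector domain from 35.00 to 35.90 Mb stood against BAF47 domains of 100, 350 and 300 kb, the same in both lists. The chromosome 9 locus (90.35 to 90.60 Mb) lies in the block where BAF47 positions run 50 kb ahead. Both empty vector lists had 1250 kb unbroken, and the BAF47 lists shared domains of 750 and 150 kb and then differed, with 100 and 100 kb in BAF47 A and 250 kb in BAF47 B. On chromosome 2 the BAF47 lists differed in 1 domain, of 250 kb from 40.50 Mb, which only BAF47 B listed inside the 2050 kb domain of the empty vector lists.

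**Figure D3:**
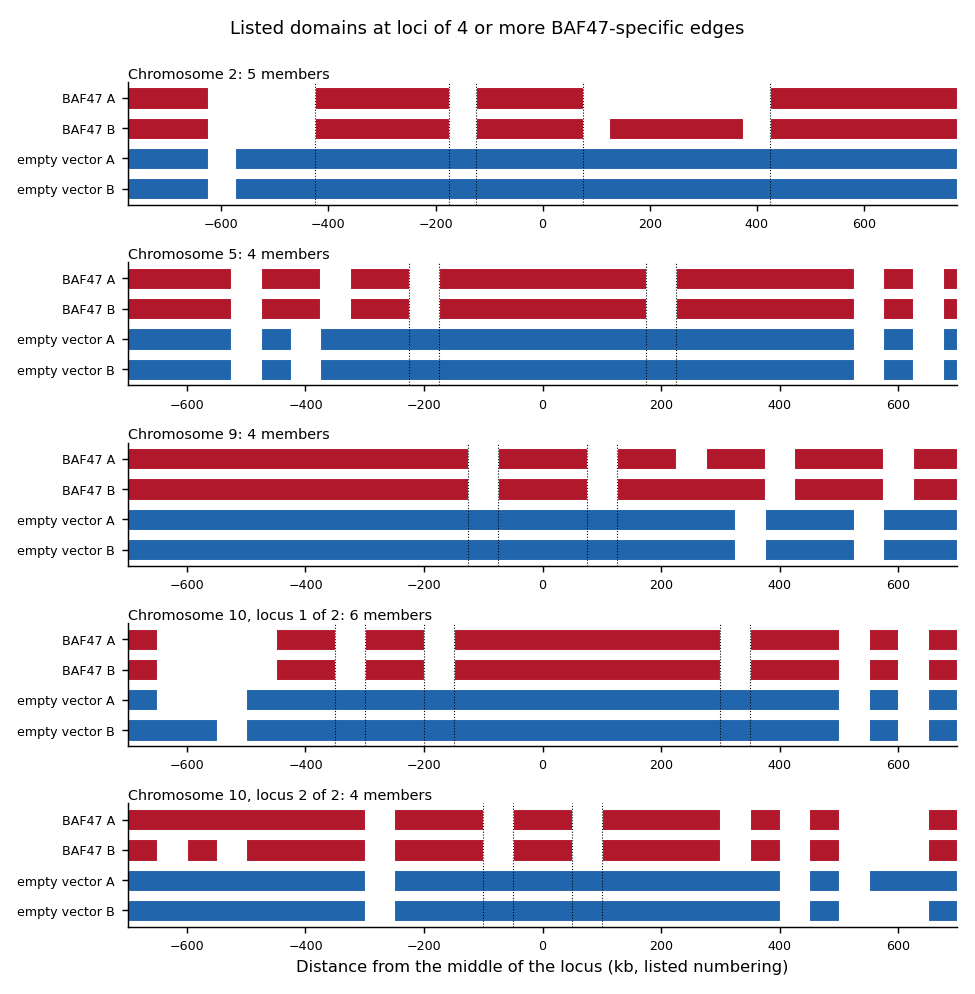
Listed domains (bars) of the 4 lists at the 5 loci of 4 or more BAF47-specific edges, against distance from the middle of each locus (kb, in the numbering of the lists), with dotted lines at the specific edges. At each locus the BAF47 lists (red) hold 4 to 6 specific edges where both empty vector lists (blue) show 1 bar from the first to the last of them. Between closely spaced specific edges the rule itself bars empty vector edges.

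At each of the 6 large empty vector loci, both BAF47 lists in turn had a single domain from the first to the last specific edge. Here too the rule fixed the lack of BAF47 edges between closely spaced specific edges. On chromosome 3, from 118.35 to 118.70 Mb, BAF47 A and B both had an 800 kb domain starting at 118.20 Mb. There empty vector A listed domains of 150, 50, 150 and 200 kb and empty vector B the same but for a last one of 250 kb. The chromosome 7 locus is the plainest. A 1350 kb BAF47 domain from 14.60 to 15.95 Mb was listed in both empty vector samples as domains of 300, 100 and 850 kb. Chromosome 4 held 3 of the 6 loci. At the first, from 96.00 to 96.65 Mb, a 950 kb BAF47 domain stood against empty vector domains of 50, 150, 400 and 150 kb. At the third, from 126.15 to 126.30 Mb, a 700 kb BAF47 domain stood against 4 domains in each empty vector list. These were of 200 kb (A) or 250 kb (B), then 50, 200 and 50 kb.

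Another 2 of these loci were made of minute domains amid unlisted bins. At 113.00 to 113.35 Mb on chromosome 4, the empty vector lists both had 50 kb domains starting at 113.00, 113.10 and 113.30 Mb. Nothing else was listed nearby until 114.25 Mb in empty vector A and 113.75 Mb in empty vector B. Both BAF47 lists had 1 domain there, of 3550 kb in A and 3500 kb in B. The locus of 10 edges on chromosome 8, from 3.40 to 4.65 Mb, held 7 whole domains in empty vector A and 5 in empty vector B, all of 50 to 150 kb. Of the 16 edges that empty vector A and the 12 that empty vector B listed from its first to its last specific edge, 10 coincided. BAF47 A had a 2500 kb and BAF47 B a 3700 kb domain across it. At this locus the replicates of both vectors thus differed.

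**Figure D4:**
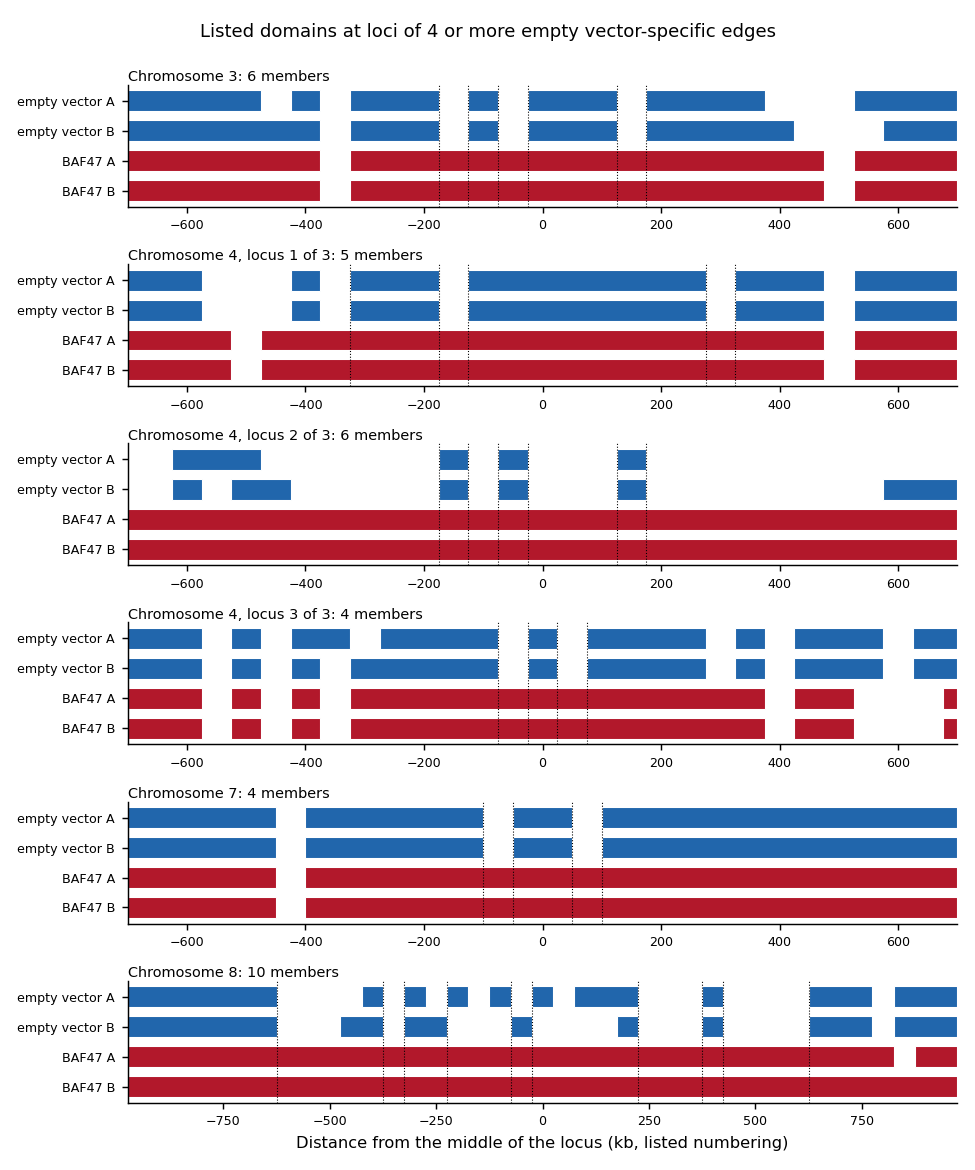
Listed domains (bars) of the 4 lists at the 6 loci of 4 or more empty-vector-specific edges, drawn as distance from the middle of each locus (kb, in the numbering of the lists), with dotted lines at the specific edges. The empty vector lists (blue) are broken where both BAF47 lists (red) are not, with 50 kb bars amid unlisted bins at the second chromosome 4 locus and 10 lines at the chromosome 8 locus. Between closely spaced specific edges the rule itself bars BAF47 edges.

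A domain of 500 kb or more with both ends specific and identical in its 2 lists was found 3 times, in each case with empty vector. On chromosome 5 the 600 kb domain from 47.70 to 48.30 Mb lay between listed domains of 350 and 600 kb, and both BAF47 lists had 1 domain of 1700 kb across all 3. On chromosome 13 the 3850 kb domain from 35.30 to 39.15 Mb lay inside a 6150 kb domain of both BAF47 lists, which covered 6 specific edges in all, at 35.25, 35.30, 39.15, 40, 40.05 and 40.60 Mb. The third, 1900 kb long from 26.85 Mb on chromosome 5, lay inside BAF47 domains of 6150 kb (A) and 7750 kb (B), and its start had the largest distance of all, 3050 kb from BAF47 A and 3100 kb from BAF47 B. The 7 BAF47-specific edges with the largest distances, 600 to 1000 kb, lay on chromosomes 1, 2, 5 and 20.

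Some loci of opposite direction were neighbours, and how many would be so by random placement was not computed. Within 500 kb of each other there were 3 pairs, on chromosomes 6, 15 and 17, each 350 kb apart, and in none did both loci hold 2 or more edges. On chromosome 17 both empty vector lists had a 650 kb domain from 41.50 to 42.15 Mb, whose start was specific to them. In both BAF47 lists domains of 100 kb from 41.85 and from 42 Mb lay within that span, and the stretch from 41.35 to 41.85 Mb was unlisted.

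Chromosomes differed widely in how many specific edges they held and in the balance of directions. The highest shares of edges reproducible in either vector were on chromosome 13, with 15 of 373 (4.02%, 95% Wilson interval 2.45 to 6.53%), on chromosome 4, with 30 of 779 (3.85%, 2.71 to 5.44%), and on chromosome 5, with 22 of 750 (2.93%, 1.94 to 4.40%). Chromosomes 16, 19 and 21 had 0 of 376, 360 and 147, for which the upper Wilson bounds are 1.01, 1.06 and 2.55%. Edges of 1 locus are not independent, so these intervals are too narrow, and no test was made. Chromosome 4 had 24 empty-vector-specific edges in 8 loci and 6 BAF47-specific edges in 4 loci, and the other pairings gave 4 edges each there. Of the 24, 15 lay in the 3 large loci, which left 9 without them. Chromosome 8 had 14 against 3, of which the locus of 10 left 4 against 3. Chromosome 13 had 11 in 7 loci against 4 in 3 loci, with 0 edges in both other pairings. Of the 11, 6 lay in the single BAF47 domain from 34.75 to 40.90 Mb, which left 5 against 4.

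The reverse balance was seen on chromosome 1, with 10 BAF47-specific edges in 7 loci and 0 empty-vector-specific ones, where the other pairings gave 0 and 3. Chromosome 17 had 8 in 4 loci against 1, with 0 in both other pairings, and chromosome 18 had 4 in 3 loci against 0, with 2 and 0 in the other pairings. The vector pairing had more edges than either other pairing on 15 chromosomes. Another pairing had as many or more on 6, namely 11, 12, 14, 19, 20 and 21, as on chromosome 11 with 7 by vector and 7 by letter and on chromosome 12 with 4 by vector and 5 crossed. Chromosome 6 had 11 by vector and 9 crossed, and chromosome 9 had 7 and 6. BAF47-specific edges outnumbered the others on 12 chromosomes and empty-vector-specific ones on 7. Counted per 100 Mb of positions over 100 kb from the other vector's edges, chromosome 17 had the most BAF47-specific edges, 41.9 on 19.1 Mb, followed by chromosome 22 with 36.8, which is 3 edges on 8.15 Mb. Chromosome 4 had 6.86 BAF47-specific and 26.1 empty-vector-specific edges per 100 Mb, on 87.5 and 91.85 Mb, so the eligible length was similar in both directions. With both directions summed, chromosomes 22 and 17 had the most per 100 Mb, 30.8 and 23.8, the first from 5 edges. Chromosomes 4, 13 and 5, highest by share of edges, had 16.7, 15.3 and 13.1. The ranking thus depends on the measure. Over all chromosomes the value was 9.27 per 100 Mb.

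**Figure D5:**
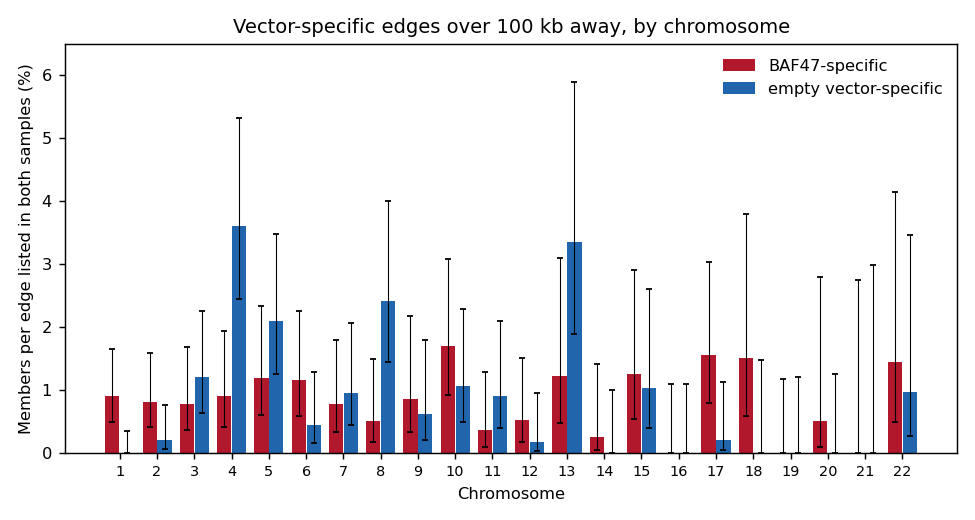
Specific edges as a share of the edges shared by both lists of the vector (y axis, %), for each autosome (x axis), with 95% Wilson intervals that take edges as independent. Empty-vector-specific edges (blue) stand highest on chromosomes 4 (3.61%) and 13 (3.35%), whereas chromosome 1 has 0.903% BAF47-specific (red) and 0% empty-vector-specific edges.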

How the data were processed

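Hi-C libraries of 4 samples (fixed in 1% formaldehyde and cut with 3 restriction enzymes, per the labels' protocols) were reduced by the authors to 1 domain list per sample, deposited as chromosome, start and end in bases, without scores. Per the submitters' processing notes, the build was hg18. Caller, aligner, resolution and filters were steps not given in the sources used here. Groups and letters come from the sample titles.

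Starts and ends were rounded to the 50 kb grid and pooled. The rule on distance (over 100 kb), the grouping into loci (up to 500 kb) and the 2 other pairings were computed in Python 3.11.15, and Wilson intervals in scipy 1.17.1. The code was tested on made lists with known edges. Named were loci of 4 or more edges, the 5 farthest edges per direction, domains of 500 kb or more with both ends specific, opposite loci within 500 kb of each other with 2 or more edges each, and the 3 highest and 3 lowest chromosomes. Other named regions were picked after their values were seen. The edges, lists and rules were chosen with earlier results of these data known. Because the rule used all 4 lists, no test of the edges was made. The alternatives tried changed the distance, the numbering, the kind of edge, agreement between replicates, unlisted stretches, chromosome ends, the joining distance and the samples. For the alignment, offsets of up to 3 bins against empty vector A were traced along each chromosome, each change costing 10 matched starts.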

Additional observations from a re-analysis of the deposited data

How the results depend on the processing

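No paired analysis was possible because presence in 2 lists against 2 gives no test. Of 148 alternative values, 91 stayed and 57 moved. Reversal was not checked as a separate outcome. A value is said to stay when a count or ratio is within 1.5 times, a held-out share within 1 SD, or a share inside a domain within the 95% interval. The ratio of the vector pairing to the higher other pairing was above 1 in its 16 alternatives.

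With a distance over 50 kb there were 175 BAF47-specific and 173 empty-vector-specific edges in 113 and 93 loci, and the held-out share in the other vector was 20.4%. Over 150 kb 62 BAF47-specific edges in 36 loci were left. Over 200 kb 37 and 65 edges in 22 and 30 loci were left, 70.3 and 96.9% of them inside a domain of the other vector's lists, and the held-out share in the replicate was 41.7%. Domain starts alone gave 64 and 68 edges and a held-out share in the replicate of 41.1%. Domain ends alone gave 65 and 63 edges, 39.0%, and 72.3% of BAF47-specific edges inside a domain. Asking for the same kind of edge gave a held-out share of 40.6%. Boundary bins gave 48.5% in the replicate and 21.7% in the other vector, and a match within 50 kb gave 50 and 22.1%. Without unlisted stretches over 1 Mb the share in the replicate was 45.8%, and 92.1% of BAF47-specific edges lay inside a domain.

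With 1 sample left out, so that a lone list stood for its vector, there were 182 to 236 BAF47-specific and 173 to 243 empty-vector-specific edges, in 99 to 116 and 91 to 106 loci. The pairing ratio was then 1.51 to 1.81, the held-out share 47.9 to 49.8% in the replicate and 27.9 to 35.2% in the other vector, and 85.2 to 89.7% of empty-vector-specific edges lay inside a domain. A lone list adds the edges its replicate lacks, by construction. For the other moves the cause was not tested. With no read counts deposited, what depth limits is unknown.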
